A study of Mus musculus with 16 samples.

Results

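The response of Rictor-deleted colonic epithelium to dextran sulfate sodium (DSS) was read from 8 of the 16 RNA sequencing libraries of the series, 4 after 3% DSS and 4 on normal water. DSS is a sulfated sugar polymer given in drinking water that damages the lining of the mouse colon and brings on colitis. The libraries were chosen by their labels alone. The cKO_DSS and cKO groups are labelled as carrying floxed Rictor with Villin-Cre, the first given 3% DSS and the second normal water. The control_DSS and control groups carried Villin-Cre without the floxed allele, under the same names of treatment, so the Cre transgene is shared by all 16 libraries. Villin-Cre is driven by the promoter of a brush border gene and is active in the epithelium of both small and large intestine, so the deletion is not limited to the colon. The labels give the tissue as colon and the cells as colonic epithelial cells, with no age, strain, sex or hour of collection. Nothing in them ties each library of a group to an animal of its own, so a p-value here reflects only how these libraries vary. Of the 56268 genes in the deposited table, the 12779 on autosomes with at least 1 FPKM (fragments corrected for the length of the gene and the depth of the library) in at least 4 of the 16 libraries were compared.

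Rictor is the subunit that defines mTOR complex 2 (mTORC2), which activates the kinases AKT, SGK and PKC downstream of insulin and other growth factors. When DSS breaches the epithelial barrier, the cells left behind face bacteria and interferons from immune cells. Crypts are then rebuilt by cells that dampen stem cell genes for a time and switch on a repair program. The comparison asks how the transcriptome of epithelium without Rictor differs between injury and rest.

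The gene Rictor lies on the plus strand of chromosome 15 (chr15:6708379-6800401, mm10). It had 2.96, 2.78, 1.92 and 2.36 FPKM in the cKO_DSS libraries, against 2.75, 2.33, 2.57 and 2.22 FPKM in the cKO libraries. The groups overlapped, with a log2 fold change of 0.0095 ± 0.12, adjusted p = 0.97. An exact two-sided permutation test of the FPKM gave p = 0.857, where the smallest value that 4 against 4 allows is 0.0286. In the groups with an intact gene Rictor stood at 3.85, 3.69, 2.82 and 4.16 FPKM in control_DSS, against 3.14, 3.08, 2.798 and 2.17 FPKM in control. FPKM sum reads over the whole gene and the sources used here do not name the floxed exons, so these levels do not show how complete the deletion was. Throughout, a log2 fold change is that of cKO_DSS over cKO on log2(FPKM + 1), which understates the change of low genes, and is given ± SE from a limma fit of 4 group means to all 16 libraries (n = 4 per group). Genes were called at a Benjamini-Hochberg adjusted p under 0.05.

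The libraries held 13911823 to 16414914 reads. Epithelial markers were high in all 8, from Epcam at 754, 833, 866 and 831 FPKM in the cKO_DSS libraries, against 683, 714, 639 and 689 FPKM in the cKO libraries to the keratin Krt8 at 3057, 2627, 3508 and 3364 FPKM in the cKO_DSS libraries, against 2616, 2549, 2666 and 2831 FPKM in the cKO libraries. The sexes were not balanced between the groups. The 4 genes Ddx3y, Eif2s3y, Kdm5d and Uty of the Y chromosome held 3371, 4533, 2924 and 3315 reads in the cKO_DSS libraries, against 635, 1856, 0 and 0 reads in the cKO libraries. Xist, the RNA of the inactive X chromosome, stood at 0 to 0.0141 FPKM in the cKO_DSS libraries and at 44.7 to 105 FPKM in the cKO libraries, so cKO 1 and 2 held both Xist and Y-linked reads, and the response to DSS and the sex of the animals cannot be told apart. Mitochondrial genes took 4.74 to 6.95% of reads in cKO_DSS and 7.67 to 15.1% in cKO. Among the DSS libraries, cKO_DSS 1 and 2 stood at 15.2 and 25.01 on the second principal component of the 8 libraries, and cKO_DSS 3 and 4 at -21.2 and -20.8. In a bulk sample, fewer cells of a type and less RNA per cell cannot be told apart.

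Between the DSS and water libraries of Rictor-deleted epithelium 1884 of the 12779 genes differed, 14.7% of those tested. The levels of 1050 genes (8.22%) were higher and those of 834 genes (6.53%) lower. The 4 values of one group all lay beyond the 4 of the other in 19.2% of all genes, 10.3% upwards and 8.88% downwards. At least a 2-fold change was reached by 141 genes that rose and 122 that fell, 1.1 and 0.955% of those tested. Leaving out cKO 3 and 4, the libraries with 0 Y-linked reads, gave 639 calls, which include 619 of the 1884. Adding the Y-linked level of each library to the fit gave 301 calls, which include 284 of the 1884. A gene named below as rising or falling was called in each of the 8 fits that left out one library of these 2 groups, unless the libraries without which it was lost are named.

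Among called protein-coding genes whose groups did not overlap, predicted genes left out, the 12 largest rises were led by genes induced by interferons, and the 12 largest falls by output genes of the circadian clock and by short genes of the ribosome and nucleosome. Iigp1, an immunity-related GTPase that attacks the vacuoles of intracellular microbes, had 27.8, 39.5, 27.7 and 21.95 FPKM in the cKO_DSS libraries, against 1.14, 2.71, 3.52 and 3.85 FPKM in the cKO libraries. The lowest DSS library was over 5 times the highest water library, and the log2 fold change was 3.03 ± 0.26, adjusted p = 2e-05. Ifit2, which binds foreign RNA, had 78.4, 123, 87.9 and 65.8 FPKM in the cKO_DSS libraries, against 7.302, 10.5, 21.3 and 10.3 FPKM in the cKO libraries, a log2 fold change of 2.81 ± 0.33, adjusted p = 0.00017. All 4 DSS libraries again lay above all 4 on water.

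The other genes among the 12 largest rises had more varied roles. Ly6d, a small membrane-anchored protein of squamous and progenitor cells, had 8.25, 18.1, 14.3 and 8.57 FPKM in the cKO_DSS libraries, against 0.88, 0.617, 1.88 and 0.677 FPKM in the cKO libraries. No value of one group reached the other, and the log2 fold change was 2.7 ± 0.28, adjusted p = 6.1e-05. Nt5c1a, a cytosolic nucleotidase that makes adenosine from AMP, had 15.1, 11.3, 17.7 and 17.2 FPKM in the cKO_DSS libraries, against 2.898, 3.81, 2.11 and 3.12 FPKM in the cKO libraries, a log2 fold change of 2.04 ± 0.31, adjusted p = 0.00075. Ffar4, a receptor for long-chain fatty acids, had 37.8, 27.7, 27.5 and 37.6 FPKM in the cKO_DSS libraries, against 8.88, 7.02, 7.503 and 6.52 FPKM in the cKO libraries, a log2 fold change of 1.98 ± 0.19, adjusted p = 5e-05. The groups of both genes were apart. Aldh1a3, which makes retinoic acid and passed the filter through DSS libraries alone, had 7.67, 3.53, 4.66 and 3.65 FPKM in the cKO_DSS libraries, against 0.638, 0.866, 0.525 and 0.576 FPKM in the cKO libraries and a log2 fold change of 1.78 ± 0.23, adjusted p = 0.00026. The remaining 6 were Nfil3, a transcription factor of the clock, and the interferon-induced genes Trim30d, Tgtp1, Slfn2, Phf11a and Slfn5, whose log2 fold changes ran from 1.78 ± 0.26 to 2.03 ± 0.26.

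**Figure D1:**
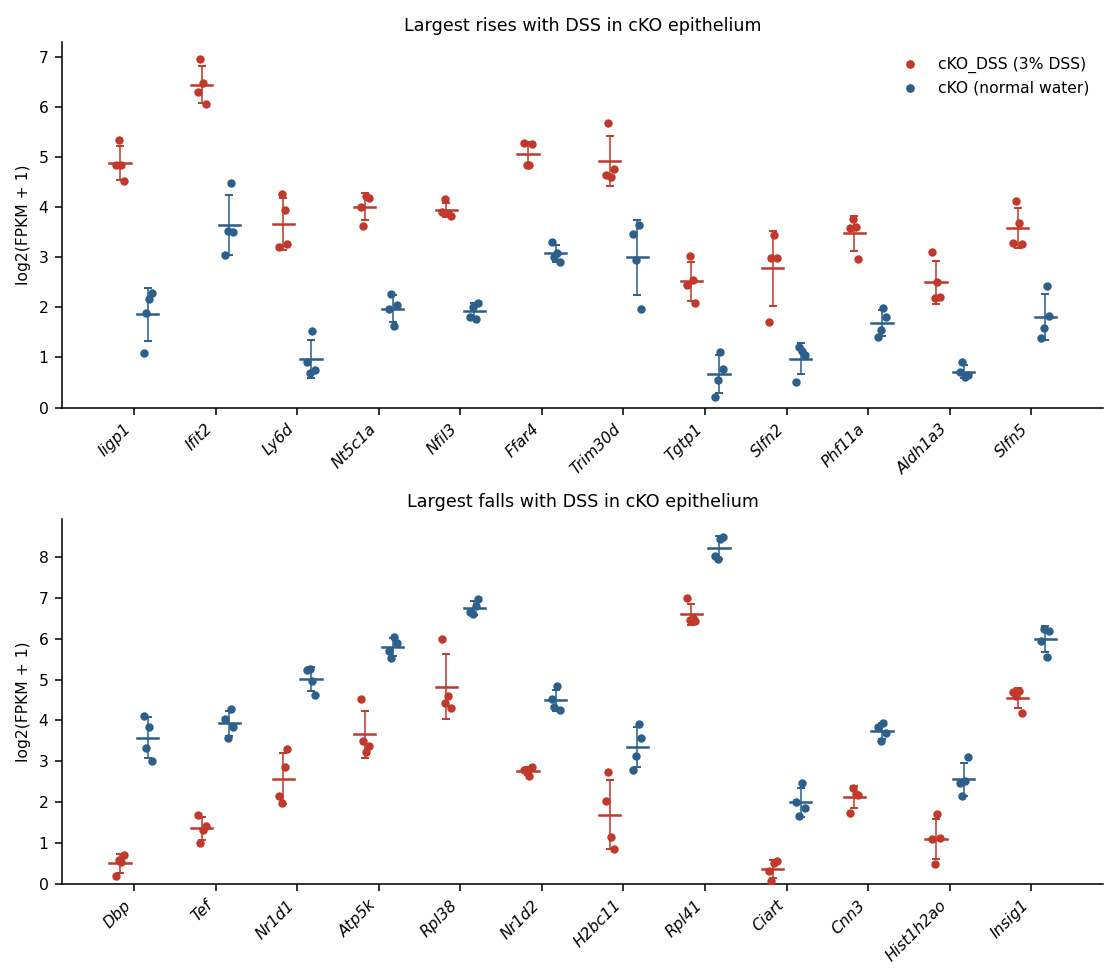
Levels of the 12 largest rises and the 12 largest falls by library, in log2(FPKM + 1), with cKO_DSS left of cKO for each gene. Points are libraries and bars are the mean ± SD of 4. No DSS point overlaps the water points of the same gene, as the choice of these genes requires, and Iigp1 and Dbp show the widest gaps.

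Of the 12 falls the widest was that of Dbp, a clock output factor, which had 0.135, 0.492, 0.445 and 0.632 FPKM in the cKO_DSS libraries, against 16.4, 9.06, 13.4 and 7.02 FPKM in the cKO libraries, a log2 fold change of -3.08 ± 0.55, adjusted p = 0.0021. No DSS library came near any on water. The calponin Cnn3, an actin-binding protein, had 2.33, 4.11, 3.61 and 3.53 FPKM in the cKO_DSS libraries, against 13.2, 10.2, 14.2 and 12.03 FPKM in the cKO libraries, again without overlap (log2 fold change -1.62 ± 0.21, adjusted p = 0.00032). Other large falls were those of Atp5k, a small subunit of the mitochondrial ATP synthase (-2.14 ± 0.46, adjusted p = 0.0067), the histone genes H2bc11 (-1.66 ± 0.4, adjusted p = 0.012) and Hist1h2ao (-1.46 ± 0.27, adjusted p = 0.0025), and the ribosomal protein genes Rpl38 and Rpl41 described further on. Tef, Nr1d1, Nr1d2, Ciart and Insig1 complete the 12.

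Interferons act through receptors that switch on transcription factors of the STAT family. One DNA element of this pathway is the gamma-activated site (GAS), written here as TTCNNNGAA. Another is the interferon-stimulated response element (ISRE), bound by a complex that holds STAT2 and IRF9 and written here as GAAANNGAAA on either strand. The promoters of 3 immunity-related GTPases carry a GAS match followed by an ISRE match, both in capitals below. The windows come from RefSeq GRCm38.p6 and are read 5′ to 3′ on the strand of the gene.
Igtp: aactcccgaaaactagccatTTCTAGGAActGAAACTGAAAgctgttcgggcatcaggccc
Irgm2: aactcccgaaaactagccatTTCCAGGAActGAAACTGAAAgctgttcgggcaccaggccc
Tgtp1: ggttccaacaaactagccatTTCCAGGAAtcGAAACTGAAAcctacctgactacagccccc
They lie at chr11:58199491-58199551 (plus strand), chr11:58214882-58214942 (plus strand) and chr11:48992294-48992354 (minus strand). In all 3 the ISRE begins 11 bases after the start of the GAS. The Igtp and Irgm2 windows differ at 2 of 61 positions, and the Igtp and Tgtp1 windows at 22. Windows from 3 further promoters are shown for a different arrangement of the ISRE letters, singly in Gbp2, at a distance from a second copy in Ifit3 and as 3 overlapping copies in Isg15, a gene that did not pass the test.
Gbp2: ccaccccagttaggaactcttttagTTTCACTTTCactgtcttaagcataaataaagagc
Ifit3: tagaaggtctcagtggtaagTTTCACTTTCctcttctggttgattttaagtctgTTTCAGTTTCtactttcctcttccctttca
Isg15: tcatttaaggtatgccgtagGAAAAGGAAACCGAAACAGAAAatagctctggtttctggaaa
These windows lie at chr3:142620579-142620638 (plus strand), chr19:34583353-34583436 (plus strand) and chr4:156200855-156200916 (minus strand). In promoters from 250 bases before to 50 bases after the start of a gene, the ISRE letters were present in 8 of the 8 IRG and guanylate-binding protein genes with a promoter in the table and in 15 of 25 antiviral genes. They were present in 4 of 15 genes of MHC class I presentation and in 3.73% of the 8677 tested genes with a promoter. Of the genes that rose 8.54% held them, and of those that fell 3.25%. The GAS letters were in 5 of the 8 GTPase promoters and in 8.03% of all tested promoters. A match is a run of letters and says nothing of whether a factor was bound.

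All 12 tested IRG and guanylate-binding protein genes were called higher, where 8.22% of all genes were. Their median log2 fold change was 1.14, beside -0.0036 over all genes. These GTPases coat the membranes that shelter bacteria and parasites inside cells. Igtp had 53.3, 57.2, 56.2 and 46.4 FPKM in the cKO_DSS libraries, against 15.3, 18.1, 17.8 and 16.2 FPKM in the cKO libraries, a log2 fold change of 1.6 ± 0.14, adjusted p = 2e-05. Irgm2, a regulatory member of the family, had 41.3, 56.9, 40.7 and 36.7 FPKM in the cKO_DSS libraries, against 14.9, 19.5, 24.5 and 22.9 FPKM in the cKO libraries (1.07 ± 0.18, adjusted p = 0.0012), and Tgtp1 had 4.42, 7.16, 4.85 and 3.25 FPKM in the cKO_DSS libraries, against 0.163, 0.4703, 1.17 and 0.696 FPKM in the cKO libraries (1.86 ± 0.22, adjusted p = 0.00015). The groups were apart for all 12 genes of the list. Among the guanylate-binding proteins, Gbp3 had 22.4, 38.2, 28.2 and 22.2 FPKM in the cKO_DSS libraries, against 7.36, 9.94, 11.8 and 7.38 FPKM in the cKO libraries (1.5 ± 0.23, adjusted p = 0.00068), and Gbp2 had 29.6, 36.8, 34.9 and 25.2 FPKM in the cKO_DSS libraries, against 10.7, 16.98, 16.9 and 10.5 FPKM in the cKO libraries (1.16 ± 0.21, adjusted p = 0.002). Gbp9 had 2.96, 3.71, 2.42 and 2.73 FPKM in the cKO_DSS libraries, against 0.506, 0.519, 0.611 and 0.375 FPKM in the cKO libraries (1.39 ± 0.13, adjusted p = 3.7e-05). Like Gbp5, it was under 1 FPKM in all 8 water libraries of the series, so both passed the filter through DSS libraries alone. Reads can be shared between near-identical members such as Tgtp1 and Tgtp2 or the Gbp genes. Tgtp2, Gbp4 and Gbp10 were below the filter, with Gbp4 at 0.873, 0.734, 0.719 and 0.825 FPKM in the cKO_DSS libraries, against 0.0961, 0.437, 0.304 and 0.269 FPKM in the cKO libraries. The list had 10 members called higher when cKO 3 and 4 were left out, and 7 with the Y-linked level in the fit, at medians of 1.27 and 1.14.

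Of 35 tested antiviral genes 27 were called higher and 1 lower, with a median of 0.99. Ifit3, of the same RNA-binding family as Ifit2, had 39.97, 55.2, 50.9 and 47.3 FPKM in the cKO_DSS libraries, against 12.5, 15.6, 17.9 and 15.5 FPKM in the cKO libraries (1.6 ± 0.22, adjusted p = 0.00043). The GTPase Mx1, which blocks viral nucleocapsids, is annotated as a polymorphic pseudogene in the deposited table and so was not ranked among the protein-coding genes. It had 33.3, 42.2, 32.9 and 30.4 FPKM in the cKO_DSS libraries, against 5.17, 7.83, 15.5 and 9.14 FPKM in the cKO libraries (1.86 ± 0.25, adjusted p = 0.00032). Rsad2 (viperin), which makes a chain-terminating nucleotide, had 28.5, 39.2, 23.9 and 24.5 FPKM in the cKO_DSS libraries, against 6.48, 8.65, 14.5 and 8.81 FPKM in the cKO libraries (1.53 ± 0.27, adjusted p = 0.002). For these 3 genes every DSS library was above every water library, and cKO 3 was the highest library on water. Usp18, which removes ISG15 from proteins and restrains the interferon receptor, had 33.5, 49.4, 37.7 and 31.2 FPKM in the cKO_DSS libraries, against 8.66, 11.8, 16.6 and 11.8 FPKM in the cKO libraries (1.57 ± 0.27, adjusted p = 0.0016). Isg15 itself, the ubiquitin-like modifier, had 154, 67.7, 234 and 158 FPKM in the cKO_DSS libraries, against 56.9, 84.7, 74.2 and 66.8 FPKM in the cKO libraries. One DSS library, cKO_DSS 2, lay within the range of the water libraries, and Isg15 did not pass the test (0.99 ± 0.33, adjusted p = 0.055). Ifi27 was the member called lower (-0.57 ± 0.17, adjusted p = 0.037), and the call was lost without any one of 6 libraries, with adjusted p of up to 0.093. Counts for this list were 24 without cKO 3 and 4 and 12 with the Y-linked level.

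Of 18 tested genes of peptide presentation on MHC class I, 11 were called higher and 0 lower, with a median of 0.84. Tap1, which pumps peptides into the endoplasmic reticulum, had 31.5, 40.6, 39.9 and 33.1 FPKM in the cKO_DSS libraries, against 12.4, 15.2, 16.9 and 15.8 FPKM in the cKO libraries (1.22 ± 0.11, adjusted p = 3.7e-05). Its partner Tapbp (tapasin) had 73.7, 83.96, 84.8 and 79.1 FPKM in the cKO_DSS libraries, against 48.8, 47.5, 51.4 and 50.7 FPKM in the cKO libraries (0.68 ± 0.085, adjusted p = 0.00021). Nlrc5, the transcriptional activator of class I genes, had 7.74, 10.1, 9.68 and 7.697 FPKM in the cKO_DSS libraries, against 2.84, 4.01, 3.696 and 3.59 FPKM in the cKO libraries (1.11 ± 0.16, adjusted p = 0.00055). In all 3 the groups were apart. B2m, the light chain of every class I molecule, had 1523, 2873, 1599.8 and 1416 FPKM in the cKO_DSS libraries, against 797, 965, 1129.8 and 992 FPKM in the cKO libraries (0.88 ± 0.2, adjusted p = 0.0083). The non-classical heavy chains H2-T23 and H2-Q7 rose (0.97 ± 0.14, adjusted p = 0.00044 and 1.32 ± 0.18, adjusted p = 0.00035). The classical heavy chain H2-K1 had 365, 453, 328 and 348 FPKM in the cKO_DSS libraries, against 113, 158, 312 and 234 FPKM in the cKO libraries, and its call (0.96 ± 0.28, adjusted p = 0.031) was lost without cKO_DSS 1, 2 or 4, cKO 1 or cKO 2, with adjusted p of up to 0.092. H2-D1 did not pass the test (0.93 ± 0.35, adjusted p = 0.087). Class I members called were 10 without cKO 3 and 4 and 7 with the Y-linked level.

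Of 8 tested genes of MHC class II presentation 2 were called higher and 0 lower, at a median of 0.53, and the groups were apart in 5. The limma count was 1 without cKO 3 and 4 and 0 with the Y-linked level, at a median of 0.62. The invariant chain Cd74 had 52.3, 56.5, 64.5 and 60.8 FPKM in the cKO_DSS libraries, against 26.6, 18.4, 14.8 and 19.5 FPKM in the cKO libraries, and the groups were apart (1.54 ± 0.26, adjusted p = 0.0015). H2-DMa was called as well (0.61 ± 0.16, adjusted p = 0.021), and the call was lost without cKO_DSS 4 or cKO 2 (adjusted p = 0.051 and 0.059). The antigen-binding chains were low and not called, though their groups were apart. H2-Ab1 had 5.41, 2.69, 3.93 and 4.57 FPKM in the cKO_DSS libraries, against 2.22, 1.97, 2.404 and 2.1003 FPKM in the cKO libraries (0.67 ± 0.31, adjusted p = 0.16), and H2-Aa had 1.86, 1.68, 2.19 and 1.63 FPKM in the cKO_DSS libraries, against 1.05, 0.707, 1.18 and 1.46 FPKM in the cKO libraries (0.44 ± 0.42, adjusted p = 0.53). In control epithelium Cd74 stood at 78.4, 55.1, 93.9 and 57.1 FPKM in control_DSS, against 44.4, 68.9, 42.9 and 112 FPKM in control, with the groups overlapping (0.16 ± 0.26, adjusted p = 0.68). The difference between the genotypes in the response of Cd74 did not pass the test (1.38 ± 0.37, adjusted p = 0.089).

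Among the receptors, signal transducers and brakes of interferon signalling, 10 of 19 tested members were called higher and 0 lower. Of the receptor chains, Ifnar1 had 10.2, 9.64, 8.89 and 8.69 FPKM in the cKO_DSS libraries, against 7.87, 7.65, 7.77 and 9.12 FPKM in the cKO libraries (0.19 ± 0.075, adjusted p = 0.11), and Ifngr1 had 99.5, 104, 82.3 and 84.2 FPKM in the cKO_DSS libraries, against 80.03, 83.01, 91.01 and 81.2 FPKM in the cKO libraries (0.13 ± 0.1, adjusted p = 0.4). Both overlapped and were not called, while Ifngr2 was (0.35 ± 0.078, adjusted p = 0.0081). Stat2 had 34.5, 42.3, 42.3 and 36.9 FPKM in the cKO_DSS libraries, against 18.8, 22.9, 23.7 and 21.7 FPKM in the cKO libraries (0.81 ± 0.15, adjusted p = 0.0026), with the groups apart. Irf1, the factor that carries interferon-gamma signals to secondary targets, had 33.1, 29.7, 40.4 and 35.5 FPKM in the cKO_DSS libraries, against 22.4, 22.9, 20.2 and 19.9 FPKM in the cKO libraries (0.67 ± 0.1, adjusted p = 0.0007). The feedback inhibitor Socs1 had 4.41, 5.56, 8.68 and 6.57 FPKM in the cKO_DSS libraries, against 2.63, 3.54, 2.63 and 2.2999 FPKM in the cKO libraries (0.93 ± 0.15, adjusted p = 0.0011) and Socs3, a brake on STAT3, had 8.94, 9.34, 16.5 and 9.76 FPKM in the cKO_DSS libraries, against 6.82, 6.37, 3.36 and 4.701 FPKM in the cKO libraries (0.94 ± 0.19, adjusted p = 0.005). Both were apart between the groups. This list held 5 calls when cKO 3 and 4 were left out, and 3 with the Y-linked level.

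**Figure D2:**
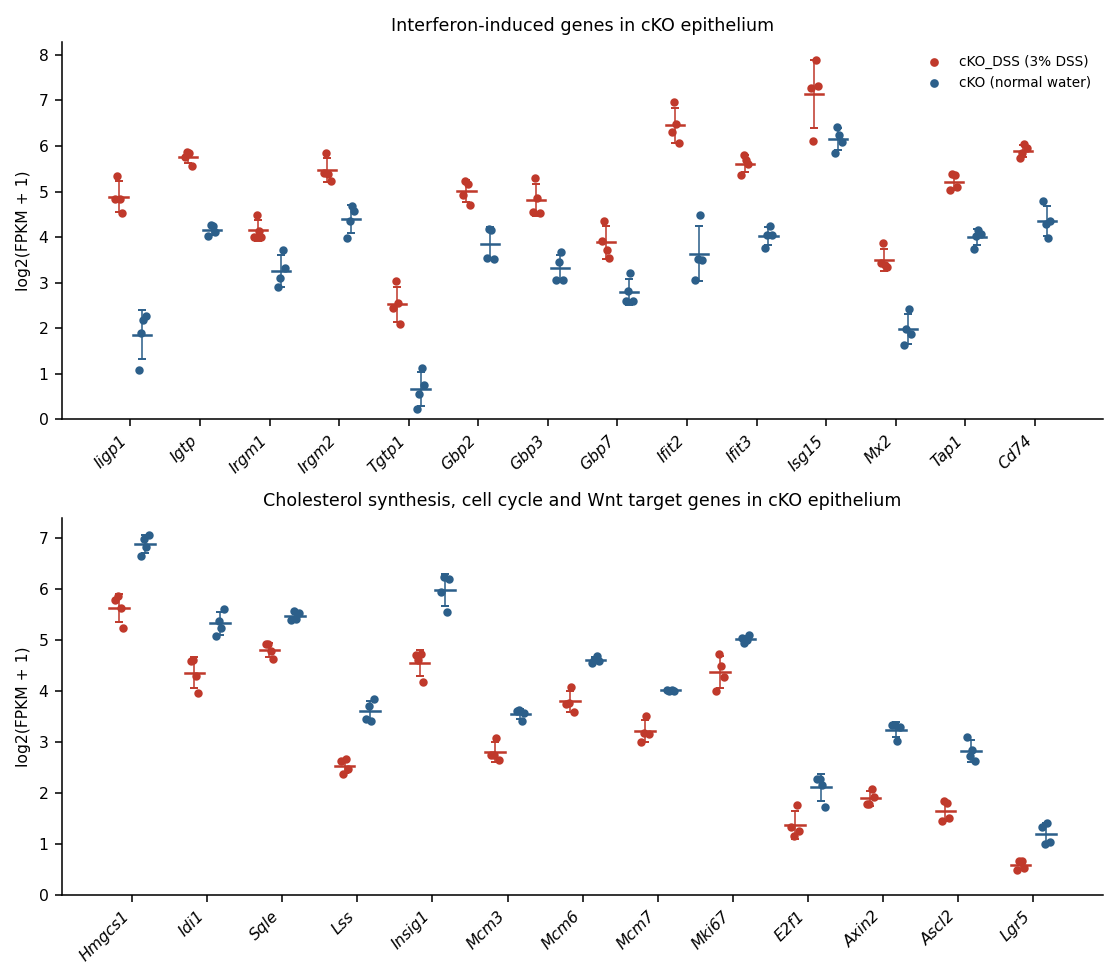
Log2(FPKM + 1) of interferon-induced genes (upper panel) and of genes of cholesterol synthesis, replication and the crypt base (lower panel) by library, with cKO_DSS left of cKO. Points are libraries and bars the mean ± SD of 4. The interferon-induced genes sit higher in cKO_DSS, with an overlap in Isg15, and the genes of the lower panel sit lower, with an overlap in E2f1.

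Of 10 tested epithelial chemokines and Ido1, 6 were called higher. Ido1, which degrades tryptophan, had 3.59, 3.79, 4.14 and 2.39 FPKM in the cKO_DSS libraries, against 0.395, 0.431, 0.967 and 0.118 FPKM in the cKO libraries (1.61 ± 0.16, adjusted p = 5.4e-05). Cxcl10, an attractant of T cells, had 11.2, 12.8, 6.93 and 8.91 FPKM in the cKO_DSS libraries, against 1.83, 2.33, 5.88 and 3.26 FPKM in the cKO libraries (1.4 ± 0.28, adjusted p = 0.0047), and Cxcl9 had 1.43, 2.57, 1.43 and 0.565 FPKM in the cKO_DSS libraries, against 0.217, 0.369, 0.244 and 0.429 FPKM in the cKO libraries (0.87 ± 0.18, adjusted p = 0.0062). Ido1 and Cxcl9 passed the filter through DSS libraries alone. The chemokine list held 3 calls without cKO 3 and 4 and 2 with the Y-linked level, at a median of 0.27. Cx3cl1, a membrane-bound chemokine, had 29.3, 29.5, 38.1 and 36.8 FPKM in the cKO_DSS libraries, against 22.3, 22.9, 16.1 and 20.1 FPKM in the cKO libraries (0.69 ± 0.14, adjusted p = 0.0045). The neutrophil attractants Cxcl1 and Cxcl2 were below the filter. Cxcl1 had 0.612, 0.239, 0.541 and 0.606 FPKM in the cKO_DSS libraries, against 0.454, 0.559, 0.274 and 0.345 FPKM in the cKO libraries. Of 18 tested NF-kB genes 8 were higher and 1 lower. Il1b, among the 18, passed the filter through DSS libraries alone. Bcl3, a nuclear partner of NF-kB subunits, had 32.1, 43.1, 38.6 and 40.4 FPKM in the cKO_DSS libraries, against 17.7, 17.5, 21.3 and 17.1 FPKM in the cKO libraries (1.02 ± 0.16, adjusted p = 0.0007), and Nfkb2 had 10.4, 9.35, 14.4 and 14.2 FPKM in the cKO_DSS libraries, against 7.54, 8.64, 5.87 and 6.903 FPKM in the cKO libraries (0.66 ± 0.14, adjusted p = 0.0055). Neither gene overlapped between the groups. Tnip1, an inhibitor of NF-kB, had 19.8, 25.9, 27.1 and 32.1 FPKM in the cKO_DSS libraries, against 40.8, 44.9, 37.9 and 35.03 FPKM in the cKO libraries and fell (-0.59 ± 0.12, adjusted p = 0.0047), while the inhibitor Tnfaip3 rose (0.55 ± 0.12, adjusted p = 0.0063). The NF-kB list held 2 higher and 1 lower without cKO 3 and 4, and 1 of each with the Y-linked level.

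Genes of antimicrobial and acute phase defence, most of secreted proteins but some of oxidases and their partners, did not move together. Of 18 tested, 4 were higher and 2 lower, where 8.22% of all genes were higher and 6.53% lower. Retnlb, a goblet cell protein that kills bacteria, had 1016, 1551, 849.9 and 739.9 FPKM in the cKO_DSS libraries, against 311, 565, 374 and 337 FPKM in the cKO libraries (1.37 ± 0.32, adjusted p = 0.011). Duoxa2, the partner that brings the hydrogen peroxide-making oxidase Duox2 to the membrane, had 28.9, 44.5, 50.03 and 34.5 FPKM in the cKO_DSS libraries, against 18.7, 21.8, 11.9 and 17.4 FPKM in the cKO libraries (1.13 ± 0.19, adjusted p = 0.0011), and Duox2 had 37.96, 42.3, 51.9 and 33.2 FPKM in the cKO_DSS libraries, against 30.3, 24.8, 22.4 and 27.2 FPKM in the cKO libraries (0.63 ± 0.13, adjusted p = 0.0044). All 3 were apart between the groups. Saa1, a serum amyloid A protein, had 34.9, 26.4, 43.8 and 31.4 FPKM in the cKO_DSS libraries, against 56.8, 74.8, 65.5 and 62.6 FPKM in the cKO libraries and was lower (-0.93 ± 0.16, adjusted p = 0.002). Reg3b, a lectin that kills bacteria, had 426, 92.9, 345 and 102 FPKM in the cKO_DSS libraries, against 1037, 65.6, 455 and 419 FPKM in the cKO libraries, a wide spread within both groups and no call (-0.8 ± 0.73, adjusted p = 0.52). Its relative Reg3g was likewise not called (-0.64 ± 0.61, adjusted p = 0.54). Lcn2 had 0.0257, 0.0488, 0.0967 and 0.0481 FPKM in the cKO_DSS libraries, against 0.0499, 0.07495, 0.168 and 0 FPKM in the cKO libraries, and S100a8 and S100a9 of neutrophils had 0 FPKM in all 8 libraries.

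In injured colon the crypts transiently resemble fetal epithelium, a state known by the surface protein Sca-1, which Ly6a encodes. Of 18 tested repair genes 10 were called higher and 0 lower, with a median of 0.8. Ereg, among the 18, passed the filter through DSS libraries alone. Ly6a had 1303, 1403, 949.7 and 729.5 FPKM in the cKO_DSS libraries, against 355, 391.6, 609 and 429 FPKM in the cKO libraries (1.28 ± 0.2, adjusted p = 0.00077). Plaur, the urokinase receptor, had 5.88, 4.33, 7.63 and 9.16 FPKM in the cKO_DSS libraries, against 1.73, 2.08, 1.29 and 1.37 FPKM in the cKO libraries (1.53 ± 0.2, adjusted p = 0.00025). Cldn4, a tight junction protein, had 52.8, 47.3, 58.4 and 76.2 FPKM in the cKO_DSS libraries, against 17.6, 26.7, 17.5 and 26.7 FPKM in the cKO libraries (1.37 ± 0.17, adjusted p = 0.00021). Every DSS library was above every water library for these 3. Krt7, a keratin of ducts, had 29.4, 21.7, 33.5 and 32.8 FPKM in the cKO_DSS libraries, against 14.3, 13.9, 9.57 and 12.6 FPKM in the cKO libraries (1.15 ± 0.16, adjusted p = 0.00042), and Il1rn, the interleukin-1 receptor antagonist, had 26.9, 28.6, 22.5 and 25.4 FPKM in the cKO_DSS libraries, against 11.2, 15.2, 12.6 and 12.97 FPKM in the cKO libraries (0.94 ± 0.13, adjusted p = 0.00035). Anxa1 did not pass the test (0.36 ± 0.15, adjusted p = 0.13), and Clu, the marker of revival stem cells, had 3.24, 4.001, 3.69 and 4.57 FPKM in the cKO_DSS libraries, against 1.56, 2.46, 2.01 and 2.16 FPKM in the cKO libraries (0.68 ± 0.17, adjusted p = 0.014). The repair list held 9 calls without cKO 3 and 4 and 7 with the Y-linked level. Of the wider Ly6 family 7 of 11 tested members were higher and 1 lower. Ly6e had 299, 424, 324 and 269 FPKM in the cKO_DSS libraries, against 137, 157, 169.9 and 117 FPKM in the cKO libraries (1.17 ± 0.21, adjusted p = 0.0022), and Ly6g6c had 2.66, 3.88, 3.34 and 3.42 FPKM in the cKO_DSS libraries, against 5.17, 5.99, 4.84 and 4.89 FPKM in the cKO libraries and fell (-0.53 ± 0.11, adjusted p = 0.0062). Reads may be shared within this family.

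Ligands of the EGF receptor, which drive healing, were among the rises: 7 of 13 tested genes of the ligands, receptors and their regulators were higher and 0 lower. Areg (amphiregulin) had 103, 107, 81.9 and 103 FPKM in the cKO_DSS libraries, against 36.9, 55.4, 39.5 and 41.9 FPKM in the cKO libraries (1.18 ± 0.18, adjusted p = 0.00068). Ereg (epiregulin), a low gene that passed the filter through DSS libraries alone, had 2.24, 3.02, 1.58 and 1.53 FPKM in the cKO_DSS libraries, against 0.523, 0.318, 0.8903 and 0.767 FPKM in the cKO libraries (0.92 ± 0.18, adjusted p = 0.0038), and Btc (betacellulin) had 4.09, 4.92, 2.95 and 2.79 FPKM in the cKO_DSS libraries, against 2.01, 1.899, 2.08 and 2.35 FPKM in the cKO libraries (0.58 ± 0.13, adjusted p = 0.0091). The groups were apart for all 3. The receptor itself, Egfr, had 4.07, 4.41, 4.04 and 4.22 FPKM in the cKO_DSS libraries, against 3.33, 3.76, 2.61 and 3.55 FPKM in the cKO libraries, and its call (0.27 ± 0.084, adjusted p = 0.04) held only without cKO 2. Dusp6, a phosphatase that ERK signalling induces and that switches ERK off, had 63.6, 74.4, 59.996 and 60.7 FPKM in the cKO_DSS libraries, against 21.5, 21.7, 23.7 and 26.02 FPKM in the cKO libraries (1.44 ± 0.16, adjusted p = 0.00011), with the largest fold change of 13 tested MAPK brakes, of which 4 were called higher and 0 lower. Spred1 rose to a smaller extent (0.49 ± 0.1, adjusted p = 0.0037), and Spry2 was not called (0.25 ± 0.11, adjusted p = 0.17). Of 20 tested immediate early genes 2 were called higher and 0 lower, and 5 were higher without cKO_DSS 1. Over all genes 8.22% were higher. Neither Fos nor Egr1 was called. Fos had 196, 248, 245 and 303 FPKM in the cKO_DSS libraries, against 229, 322, 192 and 240.2 FPKM in the cKO libraries (0.023 ± 0.16, adjusted p = 0.95), and Egr1 had 66.1, 84.2, 101 and 115 FPKM in the cKO_DSS libraries, against 95.4, 126, 77.2 and 86.1 FPKM in the cKO libraries (-0.076 ± 0.17, adjusted p = 0.82). With cKO 3 and 4 left out, 3 of the EGF genes and 2 of the brakes were called, and with the Y-linked level 1 of the EGF genes and 2 of the brakes.

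Genes of mucus-secreting goblet cells were shifted upwards, with 13 of 23 tested members called higher and 1 lower at a median of 0.66. Galnt12, which starts the sugar chains of mucins, had 63.2, 50.7, 62.9 and 57.002 FPKM in the cKO_DSS libraries, against 36.1, 36.1, 29.5 and 34.3 FPKM in the cKO libraries (0.76 ± 0.1, adjusted p = 0.00032). Spdef, the transcription factor that matures goblet cells, had 51.9, 42.96, 60.8 and 72.7 FPKM in the cKO_DSS libraries, against 32.8, 28.8, 32.5 and 33.98 FPKM in the cKO libraries (0.79 ± 0.15, adjusted p = 0.0034). Sytl2, which acts in granule exocytosis, had 11.9, 16.2, 13.04 and 11.9 FPKM in the cKO_DSS libraries, against 5.63, 8.04, 4.86 and 5.25 FPKM in the cKO libraries (1.05 ± 0.17, adjusted p = 0.00093), and Klk1, a secreted protease, had 928, 802, 854 and 914 FPKM in the cKO_DSS libraries, against 508, 582, 541 and 584 FPKM in the cKO libraries (0.66 ± 0.11, adjusted p = 0.0014). The groups were apart for these 4. The mucin Muc2 had 6.81, 8.96, 7.18 and 6.52 FPKM in the cKO_DSS libraries, against 8.6996, 3.43, 3.97 and 4.21 FPKM in the cKO libraries, with cKO 1 inside the DSS range, and did not pass (0.53 ± 0.28, adjusted p = 0.24). Tff3, a secreted trefoil peptide, had 932, 523, 394 and 363 FPKM in the cKO_DSS libraries, against 476, 649.8, 546 and 447 FPKM in the cKO libraries (-0.029 ± 0.25, adjusted p = 0.96). Spink4 was the member called lower (-0.86 ± 0.23, adjusted p = 0.021), a call lost without cKO_DSS 3, cKO_DSS 4 or cKO 3. Agr2, the chaperone of mucin folding, had 814, 928, 768 and 813 FPKM in the cKO_DSS libraries, against 591, 634, 596 and 547 FPKM in the cKO libraries (0.49 ± 0.11, adjusted p = 0.01). The goblet list held 4 calls without cKO 3 and 4 and 2 with the Y-linked level.

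Genes of the unfolded protein response rose beside them, 10 of 24 tested members higher and 0 lower. Hspa5 (BiP), the main chaperone of the endoplasmic reticulum, had 215, 229, 202 and 154 FPKM in the cKO_DSS libraries, against 119.6, 142, 105 and 95.4 FPKM in the cKO libraries (0.79 ± 0.16, adjusted p = 0.0041). Hyou1, a related chaperone, had 25.2, 20.6, 28.2 and 20.8 FPKM in the cKO_DSS libraries, against 14.6, 16.4, 12.1 and 11.6 FPKM in the cKO libraries (0.75 ± 0.13, adjusted p = 0.0017). Xbp1, the factor whose spliced form expands the secretory machinery, had 95.6, 111, 92.1 and 80.3 FPKM in the cKO_DSS libraries, against 67.5, 64.3, 64.2 and 61.4 FPKM in the cKO libraries (0.54 ± 0.094, adjusted p = 0.0016), and the sensor kinase Eif2ak3 (PERK) had 8.61, 11.2, 11.3 and 10.4 FPKM in the cKO_DSS libraries, against 6.43, 7.06, 4.79 and 6.07 FPKM in the cKO libraries (0.69 ± 0.12, adjusted p = 0.0017). No value overlapped in these 4 genes. Of the targets of ATF4, the arm that PERK activates, 1 of 18 tested was higher and 1 lower. Over all genes 8.22% were higher and 6.53% lower. Of the 24, 4 were called without cKO 3 and 4, and 0 with the Y-linked level, when their median was 0.19.

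Hormones of enteroendocrine cells followed the same direction, with 8 of 13 tested genes higher and 0 lower. Gcg, which encodes glucagon-like peptides, had 26.4, 26.5, 20.7 and 23.1 FPKM in the cKO_DSS libraries, against 11.3, 9.78, 11.5 and 12.8 FPKM in the cKO libraries (1.03 ± 0.16, adjusted p = 0.00087). Nts (neurotensin) had 12.8, 10.4, 11.1 and 6.93 FPKM in the cKO_DSS libraries, against 2.78, 2.68, 4.06 and 2.82 FPKM in the cKO libraries (1.45 ± 0.17, adjusted p = 0.00017), and Tph1, which makes serotonin, had 5.91, 5.38, 3.61 and 4.04 FPKM in the cKO_DSS libraries, against 2.05, 1.402, 1.87 and 1.53 FPKM in the cKO libraries (1.07 ± 0.15, adjusted p = 0.00044). Pyy (peptide YY) had 58.9, 48.3, 62.01 and 71.2 FPKM in the cKO_DSS libraries, against 34.97, 32.4, 36.5 and 30.9 FPKM in the cKO libraries (0.81 ± 0.2, adjusted p = 0.015). These 4 did not overlap between the groups. The granule protein Chga had 7.12, 7.84, 15.97 and 13.7 FPKM in the cKO_DSS libraries, against 6.72, 4.95, 5.01 and 4.07 FPKM in the cKO libraries. Its call (0.92 ± 0.24, adjusted p = 0.02) was lost without cKO_DSS 3, cKO_DSS 4 or cKO 4. Hormone genes called numbered 4 without cKO 3 and 4 and 3 with the Y-linked level. Of 12 tested tuft cell genes 1 was called, where 14.7% of all genes were. It was Spib (0.75 ± 0.095, adjusted p = 0.00024), a factor that M cells and lymphocytes also use.

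Gasdermins of the C cluster belong to a family of pore-forming proteins. Gsdmc2 had 879, 1202, 898 and 765 FPKM in the cKO_DSS libraries, against 419, 364, 428 and 322 FPKM in the cKO libraries (1.28 ± 0.18, adjusted p = 0.00039), and Gsdmc4 had 1494, 2109, 1573 and 1445 FPKM in the cKO_DSS libraries, against 790.5, 725, 776 and 617 FPKM in the cKO libraries (1.18 ± 0.17, adjusted p = 0.00044). Gsdmc3 had 220.3, 274, 207 and 188 FPKM in the cKO_DSS libraries, against 106, 93.7, 119 and 89.5 FPKM in the cKO libraries (1.11 ± 0.19, adjusted p = 0.0017). All DSS libraries were above all water libraries, though reads may be shared among these near-identical genes. The pyroptosis gene Gsdmd did not pass (0.44 ± 0.15, adjusted p = 0.056). Of 27 tested cell death genes 9 were higher and 0 lower. Casp8, which starts apoptosis and restrains necroptosis, had 62.7, 71.1, 59.9 and 50.3 FPKM in the cKO_DSS libraries, against 37.3, 40.5, 43.6 and 39.8 FPKM in the cKO libraries (0.58 ± 0.092, adjusted p = 0.00095). Mlkl, the executor of necroptosis, had 21.6, 38.7, 27.5 and 22.9 FPKM in the cKO_DSS libraries, against 14.8, 17.6, 21.7 and 19.1 FPKM in the cKO libraries, and its call (0.55 ± 0.16, adjusted p = 0.033) was lost without any one of 5 libraries, with adjusted p of up to 0.098. The death list held 6 calls without cKO 3 and 4 and 5 with the Y-linked level.

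Heat shock factor 1 binds trios of inverted GAA units, written here as TTCNNGAANNTTC on either strand. In the promoter of Chordc1, a co-chaperone of HSP90, 3 such matches overlap around the start, in capitals below (chr9:18292251-18292297, GRCm38.p6, plus strand).
Chordc1: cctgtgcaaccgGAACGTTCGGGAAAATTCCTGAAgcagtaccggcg
The letters were in 4 of 13 heat shock gene promoters and in 0.588% of all tested promoters. Among all genes that rose 0.388% held them, and among those that fell 0.856%. Chordc1 had 12.4, 16.97, 10.9 and 9.24 FPKM in the cKO_DSS libraries, against 6.81, 6.197, 6.76 and 6.94 FPKM in the cKO libraries (0.77 ± 0.15, adjusted p = 0.0032). Dnaja1, a co-chaperone of HSP70, had 19.4, 28.8, 24.9 and 18.9 FPKM in the cKO_DSS libraries, against 10.3, 10.997, 11.5 and 11.6 FPKM in the cKO libraries (0.97 ± 0.13, adjusted p = 0.00034), and the constitutive HSP70 gene Hspa8 had 476, 651, 548 and 367 FPKM in the cKO_DSS libraries, against 277, 290.3, 295 and 300.5 FPKM in the cKO libraries (0.78 ± 0.14, adjusted p = 0.0023). The groups did not overlap for any of the 3. Hspa1b, an inducible HSP70 gene that is almost identical to Hspa1a and may share its reads, had 52.6, 89.2, 102 and 67.4 FPKM in the cKO_DSS libraries, against 34.4, 36.9, 18.3 and 23.2 FPKM in the cKO libraries (1.44 ± 0.22, adjusted p = 0.0008). Of the list, 7 of 17 tested members were higher and 0 lower. The letters also occur in the promoters of the mitochondrial chaperone genes Hspd1 and Hspe1, which were not called. These promoters overlap on opposite strands and hold the same matches, so this stretch was counted for both genes. Hspd1 had 99.2, 72.8, 129 and 83.7 FPKM in the cKO_DSS libraries, against 139, 161, 109 and 122 FPKM in the cKO libraries (-0.48 ± 0.17, adjusted p = 0.064), and Hspe1 had 37.5, 38.7, 42.6 and 30.1 FPKM in the cKO_DSS libraries, against 45.8, 48.1, 45.1 and 43.2 FPKM in the cKO libraries (-0.29 ± 0.13, adjusted p = 0.14). The list held 4 calls without cKO 3 and 4, and 1 higher and 1 lower with the Y-linked level.

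The circadian clock runs on CLOCK or NPAS2 paired with ARNTL (BMAL1), which bind E-boxes (CACGTG) of the Per, Cry, Nr1d, Dbp, Tef and Ciart genes. The products of Per and Cry then shut ARNTL off, while the REV-ERB receptors encoded by Nr1d1 and Nr1d2 repress genes with a ROR element (TAGGTCA on either strand), among them Arntl and Nfil3. DBP and TEF raise genes with a D-box (TTANGTAA), and NFIL3 lowers them. Promoter windows of 5 clock genes, chosen because they hold a match, show these elements in capitals. Ciart has 3 E-boxes, Tef and Cry1 1 each, Nfil3 a ROR element on the opposite strand and Per3 a pair of D-boxes.
Ciart: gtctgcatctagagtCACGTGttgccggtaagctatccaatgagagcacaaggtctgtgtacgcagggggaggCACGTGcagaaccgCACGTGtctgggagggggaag
Tef: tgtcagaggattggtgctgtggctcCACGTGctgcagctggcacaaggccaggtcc
Cry1: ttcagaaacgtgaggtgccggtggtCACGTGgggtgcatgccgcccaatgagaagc
Nfil3: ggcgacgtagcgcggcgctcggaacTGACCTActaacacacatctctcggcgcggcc
Per3: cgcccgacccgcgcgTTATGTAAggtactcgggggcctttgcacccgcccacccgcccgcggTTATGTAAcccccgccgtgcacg
The windows lie at chr3:95882252-95882359, chr15:81802521-81802576, chr10:85185084-85185139, chr13:52981020-52981076 and chr4:151044801-151044885 (GRCm38.p6), on the minus strand except for Tef. Of 14 clock genes with a promoter 4 held the E-box, against 11.8% of all tested promoters, 2 held the ROR element, against 2.26%, and 1 the D-box, against 1.79%.

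Of 19 tested clock genes 4 were higher and 8 lower in cKO_DSS. The activators rose. Arntl had 9.99, 11.4, 10.6 and 10.1 FPKM in the cKO_DSS libraries, against 2.28, 2.96, 2.101 and 3.94 FPKM in the cKO libraries (1.62 ± 0.3, adjusted p = 0.003) and Npas2 had 10.3, 12.7, 10.2 and 10.6 FPKM in the cKO_DSS libraries, against 3.42, 4.68, 2.96 and 4.56 FPKM in the cKO libraries (1.29 ± 0.25, adjusted p = 0.0034), while Clock had 10.1, 12.3, 7.39 and 8.09 FPKM in the cKO_DSS libraries, against 10.1, 10.3, 9.25 and 9.69 FPKM in the cKO libraries and was not called (-0.073 ± 0.12, adjusted p = 0.75). Arntl was more than 2-fold higher in each DSS library than in any on water. Both REV-ERB genes fell. Nr1d1 had 3.44, 2.97, 6.31 and 8.88 FPKM in the cKO_DSS libraries, against 36.8, 37.4, 30.003 and 23.7 FPKM in the cKO libraries (-2.44 ± 0.35, adjusted p = 0.00048), and Nr1d2 had 5.92, 5.66, 5.21 and 6.25 FPKM in the cKO_DSS libraries, against 21.9, 19.3, 27.8 and 18.1 FPKM in the cKO libraries (-1.74 ± 0.34, adjusted p = 0.0037). Nfil3, with its ROR element, had 13.9, 16.9, 13.7 and 13.3 FPKM in the cKO_DSS libraries, against 2.49, 3.04, 2.39 and 3.27 FPKM in the cKO libraries (2.03 ± 0.26, adjusted p = 0.00026). The groups were apart in all of these except Clock.

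The output genes fell as well. Beside Dbp, Tef had 2.203, 1.01, 1.499 and 1.68 FPKM in the cKO_DSS libraries, against 15.3, 10.8, 18.4 and 13.3 FPKM in the cKO libraries (-2.57 ± 0.45, adjusted p = 0.002), and Ciart had 0.239, 0.0566, 0.421 and 0.474 FPKM in the cKO_DSS libraries, against 2.98, 2.14, 4.55 and 2.61 FPKM in the cKO libraries (-1.63 ± 0.35, adjusted p = 0.0064). Ciart passed the filter through water libraries alone. The repressors of the clock moved in opposite directions. Cry1 had 20.1, 19.2, 17.1 and 15.8 FPKM in the cKO_DSS libraries, against 6.45, 4.98, 5.898 and 7.49 FPKM in the cKO libraries and rose (1.41 ± 0.2, adjusted p = 0.00043). Per3 had 1.41, 1.13, 1.33 and 1.65 FPKM in the cKO_DSS libraries, against 6.13, 3.28, 6.48 and 4.81 FPKM in the cKO libraries and fell (-1.35 ± 0.29, adjusted p = 0.0067). Per2 had 4.803, 3.66, 5.41 and 5.04 FPKM in the cKO_DSS libraries, against 8.71, 5.45, 10.9 and 9.39 FPKM in the cKO libraries, and its call (-0.72 ± 0.22, adjusted p = 0.037) was lost without any one of 6 libraries, with adjusted p of up to 0.11. Per1 was not called (-0.34 ± 0.21, adjusted p = 0.31). Leaving out cKO 3 and 4 left 4 of the list higher and 4 lower. With the Y-linked level, Nfil3 and Cry1 were called higher and Nr1d1 lower. The labels give no hour of collection, and its part in these values was not tested.

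**Figure D3:**
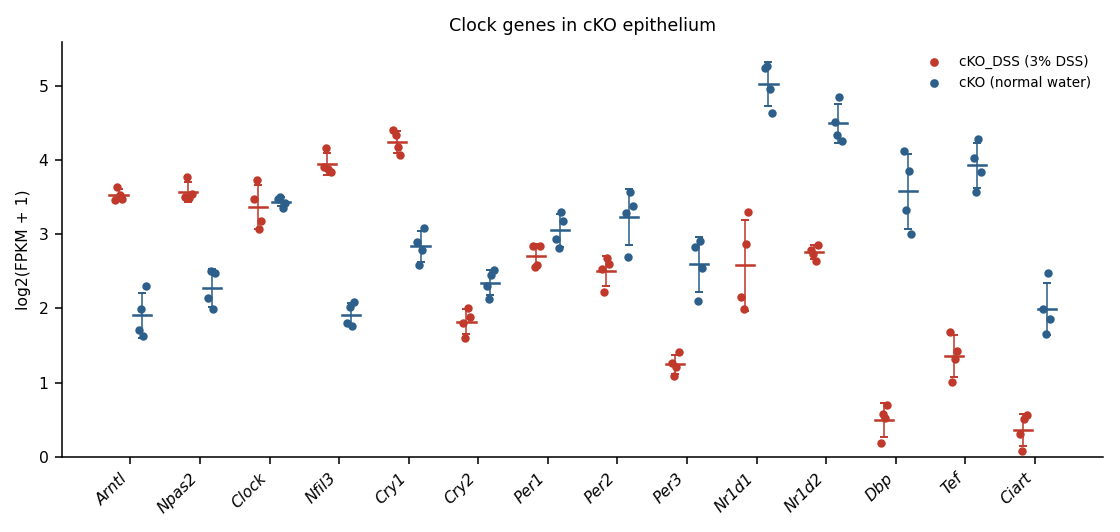
Log2(FPKM + 1) of 14 clock genes by library, with cKO_DSS left of cKO for each gene. Points are libraries and bars the mean ± SD of 4. Arntl, Npas2, Nfil3 and Cry1 are higher in cKO_DSS, Nr1d1, Nr1d2, Dbp, Tef, Ciart and Per3 are lower, and Clock overlaps.

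Most genes of sterol synthesis fell. Of 23 tested genes 17 were called lower and 0 higher, where 6.53% of all genes were lower, at a median of -0.7. SREBP2 drives these genes when cell cholesterol is low. Hmgcs1, an early enzyme of the pathway, had 54.03, 56.8, 48.8 and 36.6 FPKM in the cKO_DSS libraries, against 99.9, 125, 112 and 133 FPKM in the cKO libraries (-1.25 ± 0.24, adjusted p = 0.0031). Lss, which closes the sterol rings, had 5.16, 4.18, 5.31 and 4.56 FPKM in the cKO_DSS libraries, against 9.93, 12.1, 9.65 and 13.4 FPKM in the cKO libraries (-1.07 ± 0.21, adjusted p = 0.0043), and Mvd, earlier in the pathway, had 13.4, 11.8, 23.8 and 17.1 FPKM in the cKO_DSS libraries, against 27.9, 33.2, 24.4 and 33.8 FPKM in the cKO libraries (-0.85 ± 0.17, adjusted p = 0.0042).

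Of the regulators of the pathway, Insig1, which holds SREBP in the endoplasmic reticulum, had 24.97, 23.3, 25.5 and 17.1 FPKM in the cKO_DSS libraries, against 60.7, 74.5, 45.7 and 72.4 FPKM in the cKO libraries (-1.43 ± 0.29, adjusted p = 0.0043), without overlap. The driver Srebf2 had 47.2, 44.8, 56.9 and 55.1 FPKM in the cKO_DSS libraries, against 56.5, 53.9, 47.97 and 50.3 FPKM in the cKO libraries and did not pass (-0.036 ± 0.089, adjusted p = 0.84). Among the calls lost in some of the fits without a library were those of Idi1, Fdft1, Sqle, Cyp51, Msmo1, Hsd17b7 and Sc5d. The 17 calls became 9 without cKO_DSS 4 and 9 without cKO 4. The sterol list held 7 lower without cKO 3 and 4, and with the Y-linked level 1, Insig1, at a median of -0.76. In control epithelium 8 of the 23 were lower and 0 higher, and no member differed between the genotypes by the interaction test.

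Fatty acid synthesis shared part of this pattern, with 5 of 19 tested genes lower and 1 higher. Fasn, the fatty acid synthase, had 32.1, 26.3, 36.4 and 29.9 FPKM in the cKO_DSS libraries, against 51.4, 57.05, 45.6 and 57.05 FPKM in the cKO libraries (-0.74 ± 0.14, adjusted p = 0.003). Scd2, a desaturase, had 186, 189.97, 176 and 153 FPKM in the cKO_DSS libraries, against 345, 308, 302 and 391 FPKM in the cKO libraries (-0.93 ± 0.15, adjusted p = 0.00096), and Gpam, which starts triglyceride synthesis, had 4.06, 4.15, 3.79 and 4.02 FPKM in the cKO_DSS libraries, against 7.48, 6.92, 6.199 and 8.16 FPKM in the cKO libraries (-0.71 ± 0.1, adjusted p = 0.0005). All 3 were apart between the groups. Of 29 tested genes of fatty acid oxidation 7 were higher and 1 lower, where 8.22% of all genes were higher. Pdk4, the kinase that shuts glucose carbon out of mitochondria, had 10.3, 7.998, 7.59 and 8.19 FPKM in the cKO_DSS libraries, against 4.57, 2.24, 3.29 and 1.95 FPKM in the cKO libraries (1.29 ± 0.22, adjusted p = 0.0016). Fabp2, the fatty acid carrier of absorptive cells, had 146, 181, 139.8 and 149 FPKM in the cKO_DSS libraries, against 237, 268, 386 and 343 FPKM in the cKO libraries and was the 1 lower (-0.98 ± 0.16, adjusted p = 0.0012). Hk2, the inducible hexokinase, had 40.5, 41.01, 48.6 and 43.7 FPKM in the cKO_DSS libraries, against 22.6, 25.8, 23.5 and 21.7 FPKM in the cKO libraries (0.86 ± 0.085, adjusted p = 5e-05), while 3 of 26 tested glycolysis and hypoxia genes were higher in all and Car9 was not called (0.26 ± 0.085, adjusted p = 0.051). Pfkfb3, of the glycolysis and hypoxia list, passed the filter through DSS libraries alone. Leaving out cKO 3 and 4, 3 of the synthesis genes were lower, and 1 of the oxidation genes was higher and 1 lower. With the Y-linked level, 1 of the synthesis genes was higher and 1 lower, and of the oxidation genes 0 were called by limma.

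Of 31 tested cell cycle genes 18 were called lower and 0 higher, at a median of -0.47. The helicase that unwinds DNA for replication is built of 6 MCM proteins, and Mcm2 to Mcm7 all fell. Mcm7 had 7.01, 7.98, 10.4 and 7.93 FPKM in the cKO_DSS libraries, against 15.3, 15.03, 15.1 and 15.1 FPKM in the cKO libraries (-0.8 ± 0.1, adjusted p = 0.00026), and Mcm6 had 12.4, 12.7, 15.8 and 11.02 FPKM in the cKO_DSS libraries, against 22.4, 23.4, 24.7 and 22.9 FPKM in the cKO libraries (-0.81 ± 0.12, adjusted p = 0.00057). E2f1, which turns on the S phase genes, had 1.52, 1.22, 2.39 and 1.38 FPKM in the cKO_DSS libraries, against 3.86, 3.84, 3.47 and 2.303 FPKM in the cKO libraries (-0.74 ± 0.15, adjusted p = 0.0051). Mki67, the marker of cycling cells, had 15.004, 25.6, 21.6 and 18.2 FPKM in the cKO_DSS libraries, against 31.9, 29.8, 30.9 and 33.1 FPKM in the cKO libraries (-0.65 ± 0.15, adjusted p = 0.011), and Top2a, needed to part chromosomes, had 15.1, 22.2, 16.8 and 13.5 FPKM in the cKO_DSS libraries, against 24.3, 23.2, 23.1 and 22.5 FPKM in the cKO libraries (-0.46 ± 0.11, adjusted p = 0.012). The DSS values were all below those on water for these genes except E2f1, where cKO_DSS 3 lay just above cKO 4. Pcna did not pass (-0.29 ± 0.13, adjusted p = 0.15). The inhibitor Cdkn1a (p21) was lower too (-0.33 ± 0.088, adjusted p = 0.02), a call lost without cKO 2, cKO 3 or cKO 4. The count was 7 without cKO 3 and 4, and with the Y-linked level 2, Mcm6 and Mcm7.

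Genes of the crypt base and of Wnt signalling fell in part, 6 of 17 tested lower and 1 higher. Axin2, a direct target and brake of Wnt signalling, had 2.43, 2.46, 3.25 and 2.78 FPKM in the cKO_DSS libraries, against 9.06, 9.02, 7.14 and 8.76 FPKM in the cKO libraries (-1.35 ± 0.14, adjusted p = 5.4e-05). Ascl2, the transcription factor of intestinal stem cells, had 1.75, 2.56, 2.501 and 1.83 FPKM in the cKO_DSS libraries, against 7.58, 5.57, 6.205 and 5.14 FPKM in the cKO libraries (-1.17 ± 0.18, adjusted p = 0.00085). Lgr5, their surface marker, had 0.407, 0.586, 0.587 and 0.449 FPKM in the cKO_DSS libraries, against 1.52, 0.996, 1.67 and 1.06 FPKM in the cKO libraries (-0.61 ± 0.15, adjusted p = 0.013) and passed the filter through water libraries alone. Smoc2, a secreted protein of the crypt base, had 1.63, 1.804, 2.05 and 1.76 FPKM in the cKO_DSS libraries, against 5.62, 4.58, 3.098 and 4.22 FPKM in the cKO libraries (-0.92 ± 0.16, adjusted p = 0.0017), and Rnf43, which removes Wnt receptors, had 4.58, 5.52, 6.02 and 5.97 FPKM in the cKO_DSS libraries, against 9.94, 8.204, 10.2 and 9.09 FPKM in the cKO libraries (-0.67 ± 0.11, adjusted p = 0.0013). These 5 did not overlap between the groups. Sox9 (0.23 ± 0.15, adjusted p = 0.33) and Myc (0.27 ± 0.21, adjusted p = 0.43) were not called. Of the crypt base genes 4 were lower without cKO 3 and 4, and 3 with the Y-linked level.

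Ribosomal protein genes were lower in 18 of 51 tested members and higher in 0, at a median of -0.45. Rpl4 had 391.6, 382, 386 and 407 FPKM in the cKO_DSS libraries, against 513, 515, 579 and 577 FPKM in the cKO libraries (-0.48 ± 0.089, adjusted p = 0.0029), and Rps25 had 71.8, 44.6, 48.3 and 53.6 FPKM in the cKO_DSS libraries, against 98.3, 98.5, 119 and 116 FPKM in the cKO libraries (-0.99 ± 0.17, adjusted p = 0.0015). Rpl38 had 63.1, 20.4, 23.2 and 18.7 FPKM in the cKO_DSS libraries, against 100.1, 95.8, 110.1 and 124 FPKM in the cKO libraries (-1.92 ± 0.35, adjusted p = 0.0022) and Rpl41 had 126, 87.1, 89.8 and 85.5 FPKM in the cKO_DSS libraries, against 262, 245, 349 and 359.6 FPKM in the cKO libraries (-1.64 ± 0.33, adjusted p = 0.0045). All 4 genes were apart, but for Rpl38 the library cKO_DSS 1 stood well above the other DSS libraries. Rps29 showed this most, with 107, 5.91, 8.88 and 6.19 FPKM in the cKO_DSS libraries, against 61.3, 56.7, 85.3 and 87.3 FPKM in the cKO libraries, and its call (-2.25 ± 0.68, adjusted p = 0.037) held only without cKO_DSS 1. Short genes as a class leaned down. In the 2556 tested genes with the shortest deposited lengths, 27 to 1493 bases, the median log2 fold change was -0.097, with 3.83% called higher and 7.59% lower. In the 2556 longest, from 6821 bases, it was 0.026, with 7.71% higher and 4.89% lower. The part of gene length in the ribosomal result was not tested. Without cKO 3 and 4 the ribosomal list held 2 lower, and with the Y-linked level 0. Of 41 tested genes of the respiratory chain encoded in the nucleus 4 were lower and 0 higher, among them Uqcrb (-0.47 ± 0.12, adjusted p = 0.013). Over all genes 6.53% were lower.

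**Figure D4:**
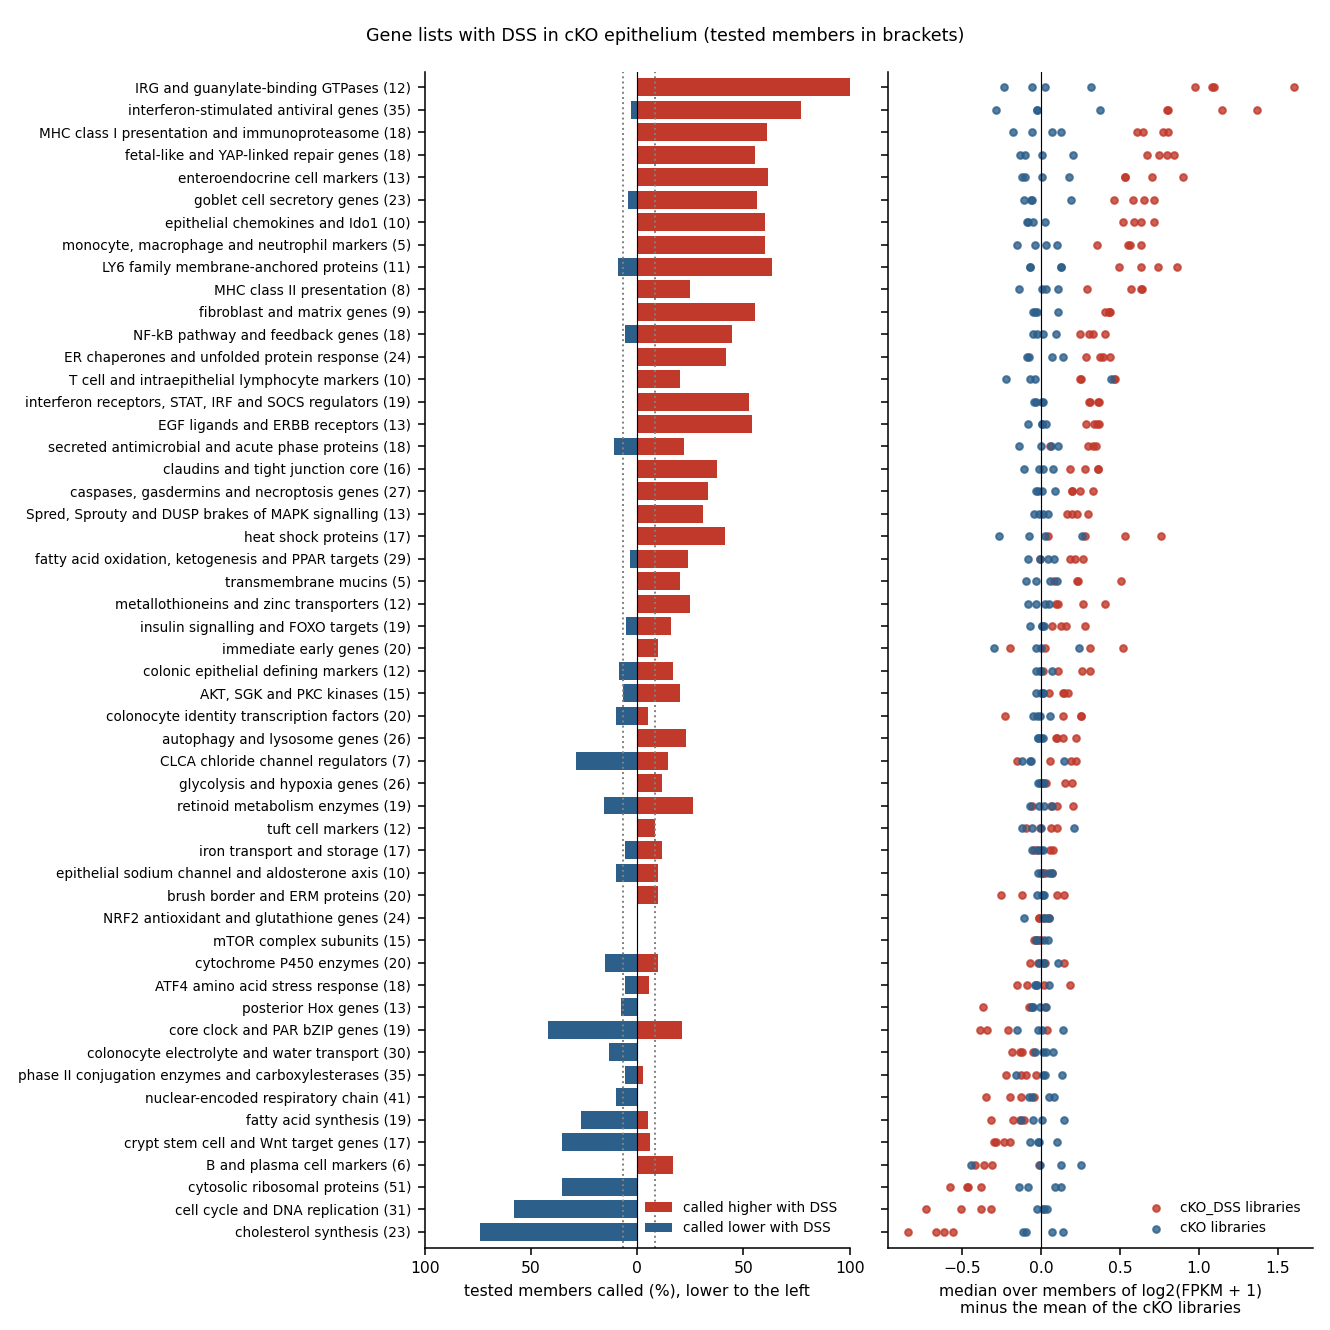
Left, the share of each gene list called higher or lower with DSS in cKO, in percent of tested members, with dotted lines at the 8.22 and 6.53% of all genes. Right, the median over the members of a list in each library, in log2(FPKM + 1) minus the mean of the cKO libraries. The IRG and guanylate-binding genes reach 12 of 12 higher, and the cholesterol list 17 of 23 lower.

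Of 30 tested genes of electrolyte and water transport 4 were lower and 0 higher, where 6.53% of all genes were lower. The chloride channel Ano1 had 22.8, 31.8, 23.8 and 26.03 FPKM in the cKO_DSS libraries, against 36.9, 35.3, 35.9 and 34.5 FPKM in the cKO libraries (-0.45 ± 0.11, adjusted p = 0.012), without overlap. Slc26a3, the chloride exchanger of the colonic surface, had 111, 120.1, 64.96 and 90.98 FPKM in the cKO_DSS libraries, against 117, 131, 208 and 159 FPKM in the cKO libraries, and its call (-0.66 ± 0.2, adjusted p = 0.04) was lost without cKO_DSS 3, cKO_DSS 4, cKO 3 or cKO 4. Aqp8, a water channel, and Car1, a carbonic anhydrase, were not called (-0.14 ± 0.16, adjusted p = 0.62 and 0.067 ± 0.28, adjusted p = 0.91). Of 16 tested tight junction genes 6 were higher and 0 lower. F11r (JAM-A) had 95.8, 106, 104 and 109 FPKM in the cKO_DSS libraries, against 79.7, 83.4, 83.6 and 76.4 FPKM in the cKO libraries (0.35 ± 0.077, adjusted p = 0.007), with the groups apart, and Cldn23 had 39.8, 52.3, 50.4 and 61.1 FPKM in the cKO_DSS libraries, against 28.7, 40.9, 27.9 and 33.8 FPKM in the cKO libraries (0.62 ± 0.13, adjusted p = 0.007), with cKO_DSS 1 just below cKO 2. The cadherin Cdh1 was not called (0.21 ± 0.11, adjusted p = 0.23). Brush border genes counted 2 higher of 20, where 8.22% of all genes were higher. Elf3, an epithelial factor of injury and differentiation, had 265, 267, 274 and 275 FPKM in the cKO_DSS libraries, against 172, 183, 155 and 173 FPKM in the cKO libraries (0.66 ± 0.1, adjusted p = 0.00049), and Maf, a factor of enterocyte maturation that passed the filter through water libraries alone, had 0.3601, 0.497, 0.654 and 0.613 FPKM in the cKO_DSS libraries, against 2.18, 2.04, 2.899 and 1.58 FPKM in the cKO libraries (-1.04 ± 0.15, adjusted p = 0.00056), both apart. Without cKO 3 and 4, the transport list held 0 calls by limma and the junction list 1, and with the Y-linked level each held 1.

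Of 15 tested subunits and regulators of the mTOR complexes 0 were called by limma, 1 was at an unadjusted p under 0.05, and 0 were called by limma voom on recovered reads. The limma shares of all genes were 14.7% called and 28.8% at an unadjusted p under 0.05. Mtor had 6.81, 7.35, 8.13 and 7.29 FPKM in the cKO_DSS libraries, against 7.99, 6.84, 7.24 and 7.49 FPKM in the cKO libraries (-0.00015 ± 0.079, adjusted p = 0.9994). Mapkap1, another subunit particular to mTORC2, had 18.2, 19.4, 20.1 and 16.8 FPKM in the cKO_DSS libraries, against 18.4, 17.7, 16.97 and 19.9 FPKM in the cKO libraries (0.027 ± 0.075, adjusted p = 0.86), and Prr5, which joins the same complex, had 7.42, 6.47, 12.2 and 10.9 FPKM in the cKO_DSS libraries, against 8.47, 9.95, 7.899 and 8.403 FPKM in the cKO libraries (0.048 ± 0.19, adjusted p = 0.9). The groups overlapped in all 3. Rptor, which defines the other mTOR complex, did not pass either (-0.14 ± 0.086, adjusted p = 0.33). Of the kinases that mTORC2 acts on, Prkca had 17.7, 18.3, 19.04 and 17.7 FPKM in the cKO_DSS libraries, against 13.6, 12.99, 11.9 and 13.6 FPKM in the cKO libraries (0.45 ± 0.1, adjusted p = 0.0081), without overlap. Sgk1 had 70.6, 58.9, 40.3 and 55.2 FPKM in the cKO_DSS libraries, against 18.5, 25.6, 37.4 and 40.4 FPKM in the cKO libraries and rose (0.9 ± 0.28, adjusted p = 0.043), a call lost without cKO_DSS 1, cKO_DSS 2, cKO_DSS 4, cKO 1 or cKO 2. Of 15 tested kinases of this group 3 were higher and 1, Sgk2, was lower, where 8.22% of all genes were higher and 6.53% lower. In the list of insulin signalling and FOXO targets 3 of 19 tested genes were higher and 1 lower, at a median of 0.16. That list held 2 higher and 0 lower without cKO 3 and 4, and 0 calls by limma with the Y-linked level. Txnip, a glucose-responsive gene that FOXO factors also regulate, had 198, 209.99, 187 and 214 FPKM in the cKO_DSS libraries, against 137, 137, 149.7 and 132 FPKM in the cKO libraries (0.54 ± 0.12, adjusted p = 0.0063).

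Markers of other cells were present at low levels. Of 10 tested T cell markers 2 were higher: Gzmb had 7.61, 6.28, 8.79 and 7.07 FPKM in the cKO_DSS libraries, against 4.29, 5.11, 1.89 and 2.95 FPKM in the cKO libraries (0.94 ± 0.19, adjusted p = 0.0043), and Gzma had 13.3, 6.17, 10.97 and 6.96 FPKM in the cKO_DSS libraries, against 3.97, 7.101, 3.95 and 3.93 FPKM in the cKO libraries (0.83 ± 0.21, adjusted p = 0.014). Cd3e stood at 0.8101, 1.02, 1.13 and 1.16 FPKM in the cKO_DSS libraries, against 0.546, 1.09, 0.1802 and 0.564 FPKM in the cKO libraries and was not called. Sums here and below also take in listed markers that were under the filter. The summed T cell markers came to 32.1 to 46.8 FPKM in cKO_DSS and 18.9 to 38.5 FPKM in cKO. Of 5 tested myeloid markers 3 were higher, and C1qb, among the 5, passed the filter through DSS libraries alone. The 20 listed myeloid markers summed to 72.7 to 104 FPKM in cKO_DSS and 42.7 to 60.9 FPKM in cKO, most of it from Cd14, which epithelium also makes. Of 9 tested fibroblast markers 5 were higher, and 3 of the 9, Col1a1, Col3a1 and Col6a1, passed the filter through DSS libraries alone. The smallest p was that of Col3a1 with 1.36, 1.21, 1.402 and 1.74 FPKM in the cKO_DSS libraries, against 0.4202, 0.314, 0.494 and 0.557 FPKM in the cKO libraries (0.74 ± 0.11, adjusted p = 0.00066). The fibroblast markers summed to 17.97 to 20.5 FPKM in cKO_DSS and 11.5 to 14.1 FPKM in cKO. The 14 listed B and plasma cell markers, of which 6 were tested, summed to 93.2 to 111 FPKM in cKO_DSS and 83.3 to 115 FPKM in cKO. Most of it came from Sdc1, which epithelium also makes. The 15 listed vascular and neural markers, of which 2 were tested, summed to 12.96 to 14.8 FPKM in cKO_DSS and 10.7 to 13.3 FPKM in cKO. The defining markers Cdh5, Csf1r, Adgre1 and Cd79a were below the filter, and Mzb1 and Sox10 at 0 in all 8 libraries. The summed epithelial markers were 14171 to 15077 FPKM in cKO_DSS and 11178 to 15105 FPKM in cKO. The part of T cells, myeloid cells and fibroblasts in the rises above was not tested.

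In control epithelium, 3663 genes (28.7%) were called in the same fit, 1910 higher (14.9%) and 1753 lower (13.7%), and the groups did not overlap in 28.4% of all genes. The sexes were not balanced here either. The Y-linked genes held 3435, 2681, 2917 and 3533 reads in control_DSS, against 792, 1377, 0 and 648 reads in control. Xist stood at 0.00402, 20.5, 0.00771 and 0.0268 FPKM in control_DSS, against 46.1, 33.2, 64.9 and 37.4 FPKM in control. The response to DSS and the sex of the animals cannot be told apart in control. Of the 1884 genes called in cKO, 832 (44.2% of the cKO calls and 22.7% of the control calls) were called in the same direction in control, and 25 in the opposite one. These are counts past a threshold in each genotype and do not test a difference. With a correction for GC content the counts were 2457 in control and 2442 in cKO. The interaction, the response in cKO minus that in control, was past the threshold for 29 genes, 0.227% of those tested, and 2961 genes were at an unadjusted p under 0.05. Of the 29, 12 were higher and 17 lower in cKO, and each was lost in at least 4 of the 16 fits without a library. The limma count was 0 without cKO_DSS 4, 2 without cKO_DSS 3, 0 without control_DSS 2 or control_DSS 4, 389 without cKO_DSS 1, 1189 without cKO_DSS 2 and 146 without control_DSS 3. It was between 1 and 12 without any one of the other 9 libraries. Where it was 0, the genes at an unadjusted p under 0.05 numbered 2145 without cKO_DSS 4, 2310 without control_DSS 2 and 2522 without control_DSS 4.

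Among the genes past the interaction threshold, Hk2 rose in cKO while in control it had 31.2, 30.5, 32.9 and 30.7 FPKM in control_DSS, against 26.1, 30.9, 30.7 and 32.8 FPKM in control (log2 fold change 0.057 ± 0.085, adjusted p = 0.64), an interaction of 0.81 ± 0.12, adjusted p = 0.022. Hoxd13, the most posterior gene of its Hox cluster, had 11.3, 11.8, 5.01 and 9.05 FPKM in the cKO_DSS libraries, against 27.1, 22.01, 26.6 and 24.9 FPKM in the cKO libraries, with the groups apart (-1.4 ± 0.2, adjusted p = 0.00043). In the control genotype it stood at 30.6, 30.4, 24.3 and 29.1 FPKM in control_DSS, against 22.7, 26.7, 16.8 and 19.6 FPKM in control (0.41 ± 0.2, adjusted p = 0.13), an interaction of -1.81 ± 0.28, adjusted p = 0.023. The cytoskeletal septin Septin10 had 4.12, 4.38, 3.85 and 3.81 FPKM in the cKO_DSS libraries, against 6.15, 6.36, 5.51 and 5.36 FPKM in the cKO libraries and in the control genotype 5.59, 5.89, 5.56 and 5.11 FPKM in control_DSS, against 4.32, 4.43, 4.67 and 4.78 FPKM in control, an interaction of -0.68 ± 0.1, adjusted p = 0.022. Ly6d had 1.07, 0.655, 2.88 and 1.39 FPKM in control_DSS, against 0.4495, 0.945, 0.4497 and 0.27 FPKM in control, and its change was larger in cKO, with an interaction of 2.04 ± 0.4, adjusted p = 0.048. Chga went in opposite directions, higher in cKO (0.92 ± 0.24) and lower in control (-0.86 ± 0.24, adjusted p = 0.018), with an interaction of 1.78 ± 0.34, adjusted p = 0.048. Trf, which encodes the iron carrier transferrin, had 4.104, 3.91, 3.13 and 4.66 FPKM in the cKO_DSS libraries, against 8.68, 8.17, 8.86 and 8.53 FPKM in the cKO libraries. In the control genotype it had 6.903, 9.896, 9.19 and 6.45 FPKM in control_DSS, against 8.502, 7.78, 5.1995 and 4.26 FPKM in control, an interaction of -1.27 ± 0.24, adjusted p = 0.048. Hk2, Hoxd13 and Septin10 led the 10 protein-coding genes with the smallest interaction p. The others were Nucks1, Nusap1, Pcbd2, Polr2k, Rdx, Tbl1xr1 and Yif1b, with interactions from -2.18 for Polr2k to 1.19 for Yif1b. In the limma fit with the GC correction, Hk2 and Hoxd13 stayed past the interaction threshold (adjusted p = 0.022 for each). So did Pcbd2 (adjusted p = 0.039). Septin10, Ly6d, Chga and Trf did not in that fit (adjusted p = 0.11, 0.093, 0.077 and 0.059), nor did the other genes named here.

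The interferon genes can be set side by side in the genotypes. The median of the 12 IRG and guanylate-binding genes was 1.14 in cKO and 1.94 in control, and that of the 35 antiviral genes 0.99 in cKO and 1.2 in control. For Iigp1 the log2 fold change was 3.03 ± 0.26 in cKO and 4.03 in control, an interaction of -1.0 ± 0.37, adjusted p = 0.14. For Igtp it was 1.6 ± 0.14 in cKO and 2.33 in control, an interaction of -0.73 ± 0.2, adjusted p = 0.089. Neither passed the test, nor did any other member of these lists in the limma fit. The sterol median was -0.7 in cKO and -0.31 in control, and that of the cell cycle list -0.47 in cKO and -0.2 in control. For Hmgcs1 the interaction was -0.76 ± 0.33, adjusted p = 0.19, and for Mki67 -0.46 ± 0.21, adjusted p = 0.21. The goblet list had medians of 0.66 in cKO and 0.21 in control, and the interaction for Spdef was 0.78 ± 0.21, adjusted p = 0.092. For the clock gene Nr1d1 the interaction was -1.64 ± 0.49, adjusted p = 0.1.

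**Figure D5:**
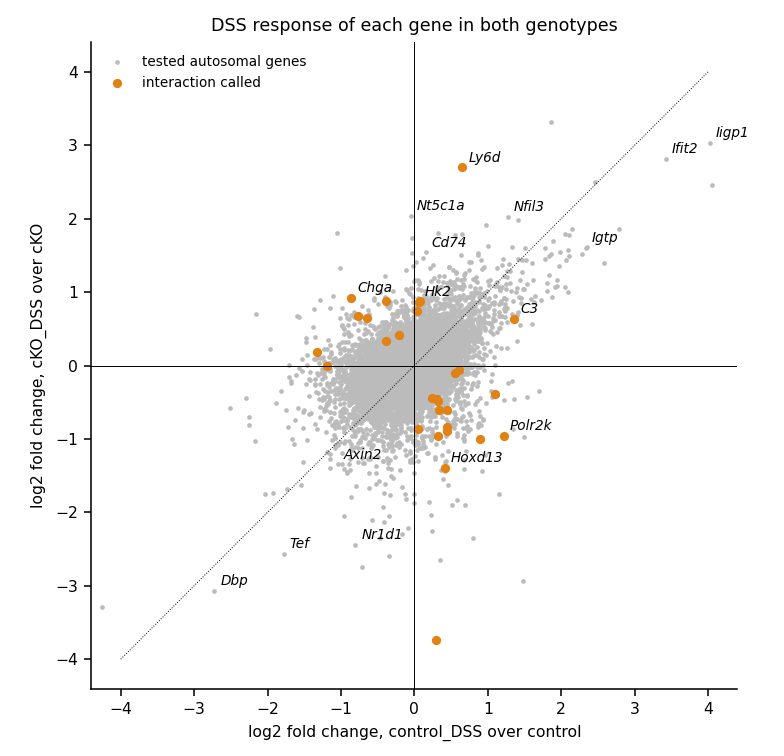
Log2 fold change with DSS in cKO (y axis) against that in control (x axis), on log2(FPKM + 1), for all 12779 genes. Each point is a gene, and the 29 genes past the interaction threshold are in orange. The interferon-induced Iigp1 and Ifit2 are high on both axes, while Hk2 and Ly6d are higher on the cKO axis.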

How the data were processed

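RNA was extracted from colonic epithelial cells with TRIzol and sequenced, and low-quality or adapter-bearing reads were discarded, per the labels' protocols. The deposited values are FPKM in 1 table of 56268 genes. The submitters' processing notes name featureCounts 1.5.0-p3 and DESeq2 1.20.0, with mm10 as the build. Neither the role of each tool nor the aligner or gene annotation is stated there. Counting is not stated to use strand, so reads of overlapping or antisense genes cannot be told apart. FPKM times gene length gave whole reads for 100% of values above 0 (tolerance 0.05), which gave the depth of 13911823 to 16414914 reads per library. Genes near 1 FPKM are measured least precisely.

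Log2(FPKM + 1) values of all 16 libraries were fitted in limma 3.58.1 (R 4.3.3) by lmFit, contrasts.fit and eBayes with a trend, with 1 mean per group. Two-sided p-values were adjusted by Benjamini-Hochberg over the 12779 autosomal genes kept, and called at 0.05. The script was tested on simulated data. Lists were described by counts and medians beside those over all genes, with no set test. Promoter windows came from RefSeq GRCm38.p6, searched on both strands.

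The comparison and the gene lists were chosen with earlier results of these data known. Named genes were Rictor; the 12 rises and 12 falls of largest size among called protein-coding genes whose groups did not overlap, without predicted genes and antigen receptor segments; the 10 smallest interaction p; the 4 smallest p of each list; and further list members, to describe their roles. Some of these are not reported here. Alternatives were a pseudocount of 0.1; no filter; 5 FPKM as the filter; quantile normalization; a shift of medians; the 8 libraries alone; a replicate block; voom on recovered reads; all chromosomes; a loess correction for GC content (known for 97.5% of genes, span 0.5); the Y-linked level as a covariate; a fold limit; and libraries left out.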

Additional observations from a re-analysis of the deposited data

Results flagged for a closer look

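In a group of 4 libraries, a value was taken as standing apart where its gap to the nearest other value exceeded Dixon's 95% limit as a share of the range of the group, which chance meets in about 1 in 20 groups. It was met by 32 of 592 series of the 296 genes examined in cKO_DSS and cKO. The gaps as shares of the range were, in cKO_DSS, 0.865 for H2-DMa, 0.831 for H2-DMb1, 0.835 for Mx2, 0.854 for Areg, 0.890 for Car9, 0.992 for Cox6c, 0.888 for Mcm5, 0.878 for Atf5 and 0.859 for Rbp4. In the same group they were 0.919 for Steap4, 0.844 for Slc11a2, 0.833 for Ly6c1, 0.883 for Clca1, 0.854 for Vim, 0.943 for Dcn, 0.877 for Cdh1 and 0.849 for Trim30d. They were 0.873 for Rpl41, 0.924 for Myc, 0.870 for Rps29 and 0.860 for Socs3. In cKO the gaps were 0.853 for Bcl3, 0.879 for Nts, 0.991 for Spib, 0.858 for Axin2, 0.852 for Pfkfb3, 0.856 for Psat1, 0.894 for Slc30a10, 0.984 for Gzma, 0.858 for Krt18, 0.837 for Ifnar1 and 0.871 for Spry2. In Cox6c, Rpl41 and Rps29 the value that stood apart was cKO_DSS 1, as in Cox6c with 69.001, 16.9, 16.7 and 16.8 FPKM in the cKO_DSS libraries, against 49.5, 48.9, 70.6 and 63.2 FPKM in the cKO libraries.

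The interaction, the response to DSS in cKO minus that in control, passed the threshold in the limma fit on the log2(FPKM + 1) scale for 14 named genes. Each of these calls was lost in some of the fits without a library, and those of Ly6d and Chga held in 3 of 16. Over all genes the interaction count was 9 with the GC correction and 0 without cKO 3 and 4. Of the 14 named genes, only Hk2, Hoxd13 and Pcbd2 were past the threshold with the GC correction. The difference was positive, a log2 fold change more positive in cKO than in control, for Ly6d (2.04), Chga (1.78), Yif1b (1.19) and Hk2 (0.81). It was negative for Polr2k (-2.18), Hoxd13 (-1.81), Pcbd2 (-1.33), Trf (-1.27), Rdx (-1.06), Clca3a2 (-0.94), Nucks1 (-0.81), Nusap1 (-0.76), Septin10 (-0.68) and Tbl1xr1 (-0.67). Yif1b, which shuttles between the Golgi and the endoplasmic reticulum, had 15.4, 12.4, 18.9 and 20.3 FPKM in the cKO_DSS libraries, against 17.3, 20.8, 12.9 and 15.8 FPKM in the cKO libraries, and 9.201, 11.1, 12.03 and 10.7 FPKM in control_DSS, against 26.7, 22.9, 25.7 and 28.1 FPKM in control. Pcbd2, a cofactor-recycling enzyme, had 11.2, 10.9, 9.52 and 12.6 FPKM in the cKO_DSS libraries, against 15.7, 21.5, 27.6 and 22.1 FPKM in the cKO libraries, and 19.4, 21.3, 15.6 and 16.8 FPKM in control_DSS, against 9.801, 12.3, 14.3 and 16.9 FPKM in control. The chloride channel regulator Clca3a2 had 5.18, 4.35, 4.47 and 4.001 FPKM in the cKO_DSS libraries, against 8.402, 6.04, 8.25 and 6.97 FPKM in the cKO libraries, and 5.77, 6.71, 5.14 and 4.68 FPKM in control_DSS, against 3.804, 3.66, 4.16 and 5.19 FPKM in control. Adjusted p ran from 0.022 for Hk2 to 0.048 for Ly6d.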

How the results depend on the processing

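None of the 1884 genes called in cKO changed sign in any alternative that tested it, and no named gene changed sign where it was called in either fit. Uncalled values near 0 can change sign, as the median of the immediate early genes did, which was -0.11 without cKO 3 and 4 and 0.16 with them. The count of calls in cKO was 301 with the Y-linked level as a covariate (216 higher, 85 lower), 639 without cKO 3 and 4 (410 higher, 229 lower) and 263 with a fold limit (141 higher, 122 lower). With the filter at 5 FPKM 494 genes were lower, of fewer genes tested. The other alternatives kept the count within 1.5 times, between 1340 at that filter and 2442 with the GC correction, and voom on recovered reads called 1848. Leaving out 1 library at a time gave 1270 to 2078 calls, 727 to 1137 higher and 543 to 941 lower, the fewest without cKO 4. In control the count was 2457 with the GC correction, 850 with the Y-linked level, 298 with the fold limit and 2181 to 4135 with 1 library left out. It moved by more than 1.5 times without control_DSS 1, control_DSS 2, control 3 or control 4. The interaction count of 29 became 4 without a filter, 45 with the filter at 5 FPKM, 47 with voom, 9 with the GC correction, 7 with the Y-linked level, 0 in limma without cKO 3 and 4 (1757 at an unadjusted p under 0.05), 0 without cKO_DSS 3 and 4 (1249), 16 with the fold limit and 0 to 1189 with 1 library left out. The cause of these moves was not tested, except that a fold limit and a stricter filter leave fewer genes to call.

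Same-numbered libraries of cKO_DSS and cKO did not deviate together (correlations of -0.075, -0.064, -0.197 and 0.010). These values cannot exclude a pairing of the samples by number, since other differences between libraries also enter them. A fit with the replicate block called 1851 genes in cKO and 26 in the interaction. Within cKO_DSS the deviation of a library ran with GC content in opposite directions, with a Spearman rho across genes of -0.255 and -0.378 in libraries 1 and 2 and 0.393 and 0.384 in libraries 3 and 4. This rho was -0.424, -0.485, 0.011 and -0.403 in the control_DSS libraries, against 0.190, 0.295, 0.455 and 0.504 in the control libraries. The log2 fold change with DSS had a rho with GC content of -0.535 in control and 0.049 in cKO. Low genes, near 1 FPKM, rest on few reads and their changes are understated by the pseudocount.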

Other observations

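Genes outside the groups above also moved. In retinoid metabolism, 5 of 19 tested genes were higher and 3 lower. Aldh1a2 and Aldh1a3, among the 19, passed the filter through DSS libraries alone. Dhrs9, which oxidises retinol, had 16.7, 22.9, 17.4 and 11.7 FPKM in the cKO_DSS libraries, against 5.37, 7.302, 5.32 and 6.23 FPKM in the cKO libraries (1.34 ± 0.16, adjusted p = 0.0002), and Rbp4, the retinol carrier, had 13.6, 13.3, 13.4 and 11.5 FPKM in the cKO_DSS libraries, against 4.83, 7.37, 5.47 and 3.86 FPKM in the cKO libraries (1.15 ± 0.17, adjusted p = 0.00054), both apart between the groups. Steap4, which reduces iron and copper, had 5.37, 9.41, 5.39 and 5.12 FPKM in the cKO_DSS libraries, against 2.61, 2.804, 2.12 and 1.96 FPKM in the cKO libraries (1.09 ± 0.17, adjusted p = 0.00092). The zinc and manganese exporter Slc30a10 had 7.03, 6.2999, 6.42 and 5.51 FPKM in the cKO_DSS libraries, against 3.602, 1.57, 3.44 and 3.33 FPKM in the cKO libraries (0.91 ± 0.23, adjusted p = 0.015), and Mtf1, the sensor that drives metallothionein genes, had 5.52, 4.94, 5.01 and 4.74 FPKM in the cKO_DSS libraries, against 3.52, 3.797, 3.38 and 4.38 FPKM in the cKO libraries (0.35 ± 0.074, adjusted p = 0.0064). These 3 were apart as well. Of 17 tested iron genes 2 were higher and 1 lower, and of 12 zinc genes 3 were higher and 0 lower. Over all genes 8.22% were higher and 6.53% lower, so the iron list as a whole stood near these shares.

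Of 20 tested cytochrome P450 genes 2 were higher and 3 lower, where 8.22% of all genes were higher and 6.53% lower. Cyp2c66 had 1.39, 1.15, 1.499 and 1.59 FPKM in the cKO_DSS libraries, against 0.437, 0.337, 0.718 and 0.517 FPKM in the cKO libraries (0.68 ± 0.15, adjusted p = 0.0068), and Cyp2d26 had 6.51, 6.42, 9.94 and 8.66 FPKM in the cKO_DSS libraries, against 16.7, 14.5, 14.97 and 11.9 FPKM in the cKO libraries (-0.81 ± 0.19, adjusted p = 0.012), both without overlap. Of 24 tested NRF2 targets, the antioxidant genes, 0 were called by limma, 5 were at an unadjusted p under 0.05, and 0 were called by voom. Limma called 14.7% of all genes and put 28.8% at an unadjusted p under 0.05. Of 26 tested genes of autophagy and lysosomes 6 were higher and 0 lower. The cargo receptor Sqstm1 (p62) had 63.1, 49.7, 69.9 and 76.99 FPKM in the cKO_DSS libraries, against 43.9, 47.4, 38.9 and 42.6 FPKM in the cKO libraries (0.56 ± 0.12, adjusted p = 0.007), and the lysosomal protease Ctsl had 12.6, 10.7, 9.39 and 10.3 FPKM in the cKO_DSS libraries, against 6.498, 6.83, 7.58 and 4.34 FPKM in the cKO libraries (0.7 ± 0.15, adjusted p = 0.0061), both apart. Nlrp6, an innate sensor of the gut epithelium, had 87.8, 97.8, 104 and 87.2 FPKM in the cKO_DSS libraries, against 65.4, 63.7, 63.1 and 67.02 FPKM in the cKO libraries (0.53 ± 0.08, adjusted p = 0.00064), also without overlap.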
